A study of Homo sapiens with 15 samples.

Results

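The cytosolic ribosomal protein genes encode the proteins of the 2 subunits of the ribosome that translates nuclear messages. They were taken by name: protein-coding genes whose symbol is RPL or RPS followed by digits, with an optional A, X or L ending, and RPLP0, RPLP1, RPLP2 and RPSA. Pseudogenes, mitochondrial ribosomal proteins and the RPS6K kinases were left out. Of 47459 gene rows with values, 80 met this rule, 48 of the large subunit and 32 of the small subunit. The table used here runs in order of gene identifier and closes with 1 row without values; RPL17, whose identifier sorts after that row, and other genes beyond it were not analysed here, and shares below are of the reads in the rows with values. A filter on low values left 78 of the 80 for testing. RPL3L and RPL10L, paralogs with restricted expression, had 1 read each in the 15 libraries together and were not tested.

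RNA was measured in MM.1S, an established human multiple myeloma cell line, by 3′ end sequencing of polyadenylated RNA. Every treatment lasted 6 h and each compound was used at 100 nM, also where 2 were combined. The 5 groups, with 3 libraries each, were dCBP-1, A-485 together with GNE-781, GNE-781, A-485, and the vehicle DMSO. CBP and p300 are paralogous acetyltransferases that act as transcriptional coactivators; A-485 blocks their catalytic site, GNE-781 blocks their bromodomain, and dCBP-1 recruits the cereblon ubiquitin ligase to them so that they are degraded. All groups come from 1 cell line, and the labels do not say whether replicates were separate cultures, so p-values measure the spread between these libraries, which may be technical.

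A ribosome holds nearly all of these proteins in a single copy, and cells adjust their synthesis together. Much of that control is on translation: the mRNAs start with a C followed by a run of pyrimidines, the terminal oligopyrimidine (TOP) motif, through which mTOR and LARP1 set how well they are translated. MYC is known to raise the transcription of ribosomal protein genes, and myeloma cells, which secrete immunoglobulin, depend on high protein synthesis.

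The pyrimidine run is what most of these genes share beyond their name. RefSeq promoters (GRCh38.p14) were available for 63 of the 80 genes, and 44 of the 63 (69.8%) had a run of 8 or more C or T on the sense strand within 10 bases of the annotated start. Among all 27305 promoters the share was 9.1%. The windows below run from 50 bases before the start to 25 after it, with the longest run at the start in capitals, and were chosen among genes that hold the run, 4 called lower and 4 called higher after dCBP-1. Not all called genes hold it at the start used: the longest run there was 3 bases in RPS27A and 5 in RPS4X, which both rose. The first promoter entry of each gene was used, so a run at any other start would not be seen. The first 4, RPL41 at chr12:56116583-56116657 (plus strand), RPL29 at chr3:51995871-51995945 (minus strand), RPL39 at chrX:119791606-119791680 (minus strand) and RPS3 at chr11:75399468-75399542 (plus strand), belong to genes that fell.
RPL41: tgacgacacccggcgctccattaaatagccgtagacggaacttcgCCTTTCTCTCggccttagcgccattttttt
RPL29: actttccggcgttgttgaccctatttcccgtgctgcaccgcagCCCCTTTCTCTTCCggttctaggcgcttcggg
RPL39: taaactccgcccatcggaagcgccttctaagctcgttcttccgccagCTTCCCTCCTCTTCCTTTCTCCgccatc
RPS3: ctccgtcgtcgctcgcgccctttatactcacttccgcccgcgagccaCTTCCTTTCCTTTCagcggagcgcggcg
The other 4, RPL34 at chr4:108620526-108620600 (plus strand), RPS12 at chr6:132814519-132814593 (plus strand), RPL26 at chr17:8383169-8383243 (minus strand) and RPL13A at chr19:49487558-49487632 (plus strand), belong to genes that rose.
RPL34: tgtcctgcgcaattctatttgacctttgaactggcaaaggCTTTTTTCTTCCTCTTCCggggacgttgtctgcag
RPS12: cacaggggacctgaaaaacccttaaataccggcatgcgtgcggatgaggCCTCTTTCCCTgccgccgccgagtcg
RPL26: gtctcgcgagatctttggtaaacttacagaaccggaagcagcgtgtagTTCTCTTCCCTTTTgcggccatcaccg
RPL13A: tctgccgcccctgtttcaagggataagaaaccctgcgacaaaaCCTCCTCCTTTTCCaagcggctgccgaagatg

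Other motifs were searched on both strands of the whole promoter entries, from 250 bases before to 50 after the start. CCGGAAG, a form of the ETS family site, was in 22 of the 63 member promoters (34.9%) and 10.7% of all promoters. ATGGCGG, the core of the YY1 site, was in 12 (19.0%) and 5.72% of all. GGGCGG, the core of the SP1 site, was in 36 (57.1%) and 44.6% of all. The E-box CACGTG, which MYC with MAX can bind, was in 3 (4.76%) and 7.43% of all, and TATAAA was in 6 (9.52%) and 12% of all. The tested genes that held the pyrimidine run and those that did not had median log2 differences of dCBP-1 minus DMSO of 0.07 (44 genes) and 0.21 (18 genes), a description without a test.

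Recovered reads per library ran from 13103114 to 18291529. The myeloma and plasma cell markers SDC1, TNFRSF17, PRDM1, IRF4, XBP1, MAF and CD38 were present in every library, at 170.0 normalized reads or more. All of them had lower means with dCBP-1 than with DMSO, among them MAF at 649 against 16394 and CD38 at 408 against 955. The 9 markers of B cells, T cells, monocytes, epithelium and fibroblasts reached at most 16.6. DMSO replicates 1 and 2 stood apart: mitochondrially encoded transcripts took 22.76% and 19.36% of their reads, against 14.15% to 16.69% in the other 13 libraries, and 16557 and 17585 genes had a read in them, against 19128 to 21140. Results for the ribosomal protein genes in each comparison with DMSO are therefore given with and without these 2 libraries. Among the ribosomal protein genes, several single libraries also deviated from their replicates, replicate 3 of dCBP-1 and replicate 3 of A-485 among them, as described at the end.

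The mean share of reads in the ribosomal protein genes was higher in each treated group than in DMSO. The share was 12.88%, 13.13% and 14.41% of reads in the dCBP-1 libraries, 13.25%, 13.34% and 12.22% with the combination, 12.85%, 12.07% and 12.77% with GNE-781, 12.62%, 13.15% and 12.21% with A-485, and 10.79%, 11.64% and 12.16% with DMSO. The lowest values were those of DMSO replicates 1 and 2, and DMSO replicate 3 lay above GNE-781 replicate 2. The share averaged 13.5% ± 0.82 with dCBP-1 and 11.5% ± 0.69 with DMSO (SD, n = 3 each). With mitochondrially encoded transcripts left out of the total it averaged 15.8% ± 0.95 with dCBP-1 and 14.3% ± 0.28 with DMSO, and no DMSO library then exceeded any dCBP-1 library. Counting error is small beside these differences, since the widest 95% Wilson interval of a library's share spanned 0.038 percentage points. A share is relative to the rest of the library, and in such bulk samples fewer cells and less RNA per cell cannot be told apart.

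**Figure D1:**
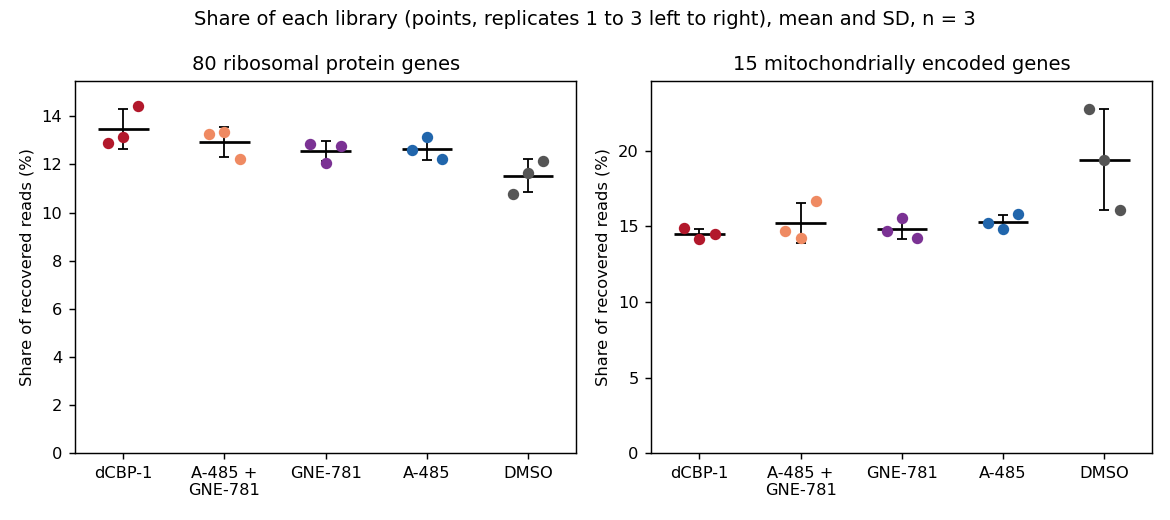
Share of recovered reads (%, y axis) in the 80 ribosomal protein genes (left) and in 15 mitochondrially encoded genes (right) in each library (points), with mean and SD (bars, n = 3). DMSO replicates 1 and 2 have the lowest ribosomal protein shares (10.79% and 11.64%) and the highest mitochondrial shares (22.76% and 19.36%).

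Levels within the family were uneven. Read counts of this method do not scale with transcript length, so genes can be set side by side as normalized read counts. RPLP1, an acidic protein of the stalk that recruits elongation factors, had the highest level, with a mean of 115829 over the 15 libraries and 5.82% of all reads in the family. RPS28 followed with 4.96%, and the 10 highest genes together held 34.9%. These are means over all 15 libraries, and the order below the first ranks differed between groups: RPS12 held 3.82% with dCBP-1 and 2.06% with DMSO, and RPL27A held 3.23% with dCBP-1 and 3.64% with DMSO. The median over the 78 tested genes was a mean level of 18784. The lowest were RPS26 with a mean level of 1085 and RPL39L, a paralog of RPL39 known for its expression in testis, with a mean level of 591. Pseudogenes of RPS26 held reads equal to 12.4% of its own, and how the counting of near-identical copies bears on its level was not tested. RPS27L, the p53-induced paralog of RPS27, was well expressed at 6621 ± 1314 with dCBP-1 and 5829 ± 2501 with DMSO (SD, n = 3 each).

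After dCBP-1 the family did not move as a block: some of its genes rose, about as many fell, and the middle of the family stayed near the middle of all genes. By limma-trend, at an adjusted p below 0.05, 10 of the 78 genes rose against DMSO and 11 fell, 26.9% of those tested. Of all 16104 genes tested, 37.8% were called (19.3% higher and 18.5% lower). By edgeR the shares called were 47.4% of the family and 41.1% of all genes, so which of them is larger depends on the tool. The median log2 fold change was 0.10 over the family and 0.07 over all genes. Both subunits were split, with 5 of 46 large subunit genes up and 7 down, and 5 of 32 small subunit genes up and 4 down. The split depends on the scaling. With libraries scaled to their total, 36 rose and 6 fell (53.8%), beside 45.9% of all genes (30.9% higher and 15% lower). This scaling moves the median of all genes to 0.24, and the family's median of 0.28 lay 0.04 above it. With libraries scaled to the family's own median, 18 rose and 12 fell (38.5%, beside 39.7% of all genes).

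The lower side was led by RPL41. It encodes the smallest protein of the ribosome, a basic peptide of 25 codons in the large subunit. Its normalized read count was 28069, 22936 and 14698 in the dCBP-1 libraries, against 59042, 78828 and 65987 in the DMSO libraries. Every dCBP-1 library lay far below every DMSO library. RPL41 fell by a log2 fold change of -1.67 ± 0.19 (SE; adjusted p = 3.4e-08 by limma), the largest change in the family in either direction, and it was called under all 20 alternative settings. Of RPL41, 3 pseudogene copies are listed, whose reads came to 1.96% of its own, so counts of such near-identical copies may be split by the counting.

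RPL29, which is known to bind heparin as well as the ribosome, had 4967, 4761 and 4346 with dCBP-1, against 7288, 7537 and 6380 with DMSO (log2 fold change -0.59 ± 0.14, limma adjusted p = 0.0017). Pseudogenes of RPL29 held reads equal to 10.4% of its own. All 3 libraries of RPL29 were lower with dCBP-1 than with DMSO.

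RPL30 had 15498, 17702 and 11346 with dCBP-1, against 21748, 25391 and 23536 with DMSO (log2 fold change -0.69 ± 0.19, limma adjusted p = 0.0046). RPL39, a small protein that lines the tunnel through which the new chain leaves, had 3922, 4354 and 3169 with dCBP-1, against 5349, 6624 and 7032 with DMSO (log2 fold change -0.73 ± 0.23, limma adjusted p = 0.013). RPS25, which is known for a role in internal ribosome entry of viral mRNAs, had 8210, 7248 and 5885 with dCBP-1, against 8567, 9588 and 11911 with DMSO (log2 fold change -0.49 ± 0.15, limma adjusted p = 0.0084). For RPS25 the highest dCBP-1 library and the lowest DMSO library were close. Without dCBP-1 replicate 3 the calls of RPL39 and RPS25 were lost, with log2 fold changes of -0.61 and -0.36. Of the other genes that fell, RPL19, RPL28 and RPS3 had log2 fold changes of -0.42 to -0.37.

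The higher side was led by RPS12, RPS27A and RPL34. RPS12, a small subunit protein, had 63968, 66486 and 104715 with dCBP-1, against 34386, 31076 and 58895 with DMSO. The groups did not overlap, but replicate 3 was the highest of its group on both sides. The log2 fold change of RPS12 was 0.94 ± 0.23 (limma adjusted p = 0.0014). RPS27A is made as a fusion of ubiquitin with a ribosomal protein. It had 56358, 57262 and 104930 with dCBP-1, against 37668, 32550 and 46225 with DMSO (log2 fold change 0.86 ± 0.22, limma adjusted p = 0.0027). RPL34, of the large subunit, had 16297, 18107 and 23014 with dCBP-1, against 9004, 9177 and 14408 with DMSO (log2 fold change 0.84 ± 0.18, limma adjusted p = 0.00052). The lowest dCBP-1 library of RPL34 exceeded every DMSO library.

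RPS4X, the X-linked form of a small subunit protein, had 28480, 27009 and 36690 with dCBP-1, against 16938, 16591 and 26511 with DMSO (log2 fold change 0.64 ± 0.17, limma adjusted p = 0.0035). The lowest dCBP-1 library was just above DMSO replicate 3. RPL13A, also known as a part of an interferon-responsive complex that silences inflammatory mRNAs, had 21027, 22379 and 46030 with dCBP-1, against 17300, 16222 and 16668 with DMSO (log2 fold change 0.74 ± 0.23, limma adjusted p = 0.013). RPL26, which is known to bind the p53 mRNA, had 25443, 28301 and 51100 with dCBP-1, against 20483, 17981 and 22056 with DMSO (log2 fold change 0.73 ± 0.20, limma adjusted p = 0.0053). In both of these genes dCBP-1 replicate 3 was far above the other 2, and without it the log2 fold changes were 0.38 and 0.42 and neither was called. The other 4 genes that rose, RPL14, RPS3A, RPL21 and RPS6, had log2 fold changes of 0.44 to 0.62. RPS6, the classical substrate of the S6 kinases, had 33025, 31056 and 38569 with dCBP-1, against 22185, 23086 and 30846 with DMSO (log2 fold change 0.44 ± 0.17, limma adjusted p = 0.036).

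**Figure D2:**
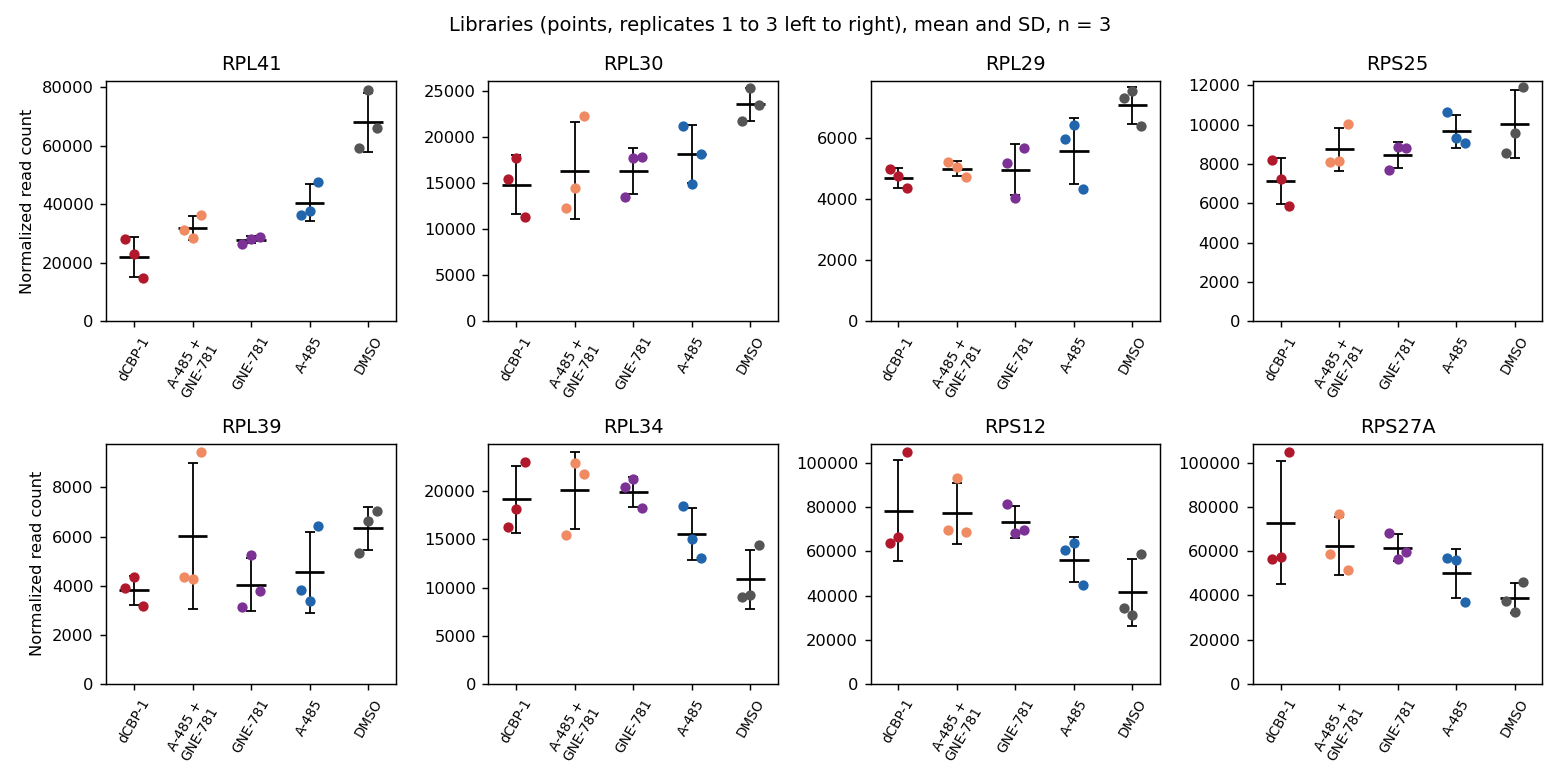
Normalized read counts (y axis, from 0) of 8 ribosomal protein genes in each library (points, replicates 1 to 3 from left to right), with mean and SD (bars, n = 3). RPL41 is lower in all treated groups than in DMSO, and in RPL34 and RPS12 DMSO replicate 3 lies above DMSO replicates 1 and 2.

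Leaving out libraries showed how far these calls rest on single samples. Of the 21 genes called after dCBP-1, 9 kept the call whichever 1 library of the 6 was left out, among them RPL41, RPL29 and RPL30 on the lower side, and RPL34, RPS12, RPS27A and RPS4X on the higher side. Without dCBP-1 replicate 3, 4 genes rose and 8 fell (15.4% of the family, beside 30.9% of all genes). Without DMSO replicate 3, 19 rose and 11 fell (38.5%, beside 40.1% of all genes). Without DMSO replicates 1 and 2, which leaves 1 DMSO library assumed to vary like the other groups, none of the 78 genes rose and 7 fell, against 23.5% of all genes called. Of the 11 genes that fell with all libraries, 5 kept the call there, among them RPL41, RPL19, RPS3 and RPS25. The log2 fold changes of RPL34, RPS12 and RPS27A were then 0.39, 0.37 and 0.59. The part of the mitochondrial share in these differences was not tested.

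The combination of A-485 and GNE-781 gave 7 genes up and 6 down against DMSO, 16.7% of the 78, and 21% of all genes tested were called (11.4% higher and 9.6% lower). The median log2 fold change was 0.11 over the family and 0.09 over all genes. RPL41 had 31217, 28287 and 36410 with the combination, against the DMSO values above, and fell with a log2 fold change of -1.09 ± 0.19 (adjusted p = 0.00015 by limma). RPL30 and RPL29 also fell, with log2 fold changes of -0.57 and -0.50. RPS12, with 69460, 93171 and 68905, had a log2 fold change of 0.94 ± 0.23 (adjusted p = 0.0033 by limma). RPL34, with 15483, 22955 and 21774, had 0.90 ± 0.18 (limma adjusted p = 0.00069), and RPS4X, with 29692, 35487 and 35431, had 0.77 ± 0.17 (limma adjusted p = 0.0015). All libraries of these 3 genes were above every DMSO library. RPL26, RPS27A, RPL14 and RPS24 also rose, by 0.57 to 0.73 on the log2 scale, and RPS24, in which DMSO replicate 3 reached 44313, overlapped with DMSO. With libraries scaled to their total, 25 genes rose and 5 fell (38.5%), beside 29.3% of all genes (20.6% higher and 8.71% lower).

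With the combination, 5 of the 13 calls held whichever 1 library was left out. Without combination replicate 2, in which the higher genes were highest, 3 genes rose and 4 fell (8.97%, beside 12.7% of all genes). Without DMSO replicate 2, 3 rose and 2 fell (6.41%, beside 13.8% of all genes). Without DMSO replicates 1 and 2, none rose and 1 fell, RPL41, where 6.61% of all genes were called.

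GNE-781 gave 7 genes up and 8 down, 19.2% of the 78, and 16.6% of all genes tested were called (7.82% higher and 8.81% lower). The median log2 fold change was 0.09 over the family and 0.07 over all genes. RPL41 had 26540, 28134 and 28757 with GNE-781, the tightest group of this gene, and fell with a log2 fold change of -1.28 ± 0.19 (adjusted p = 3e-05 by limma). RPL39, RPS3, RPL29 and RPL28 also fell, with log2 fold changes of -0.67 to -0.45. RPL34, with 20395, 21218 and 18207, had a log2 fold change of 0.91 ± 0.18 (adjusted p = 0.00087 by limma), and RPS12, with 81457, 68231 and 69709, had 0.87 ± 0.23 (limma adjusted p = 0.0076). Both lay above every DMSO library. RPL14, RPS27A, RPL26, RPS3A and RPS4X rose by 0.50 to 0.70. RPS7, a gene of Diamond-Blackfan anemia, had 0.69 and was not called (limma adjusted p = 0.053).

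With GNE-781, 3 of the 15 calls held whichever 1 library was left out. Without GNE-781 replicate 1, 1 gene rose and 4 fell (6.41% of the family, beside 9.11% of all genes). Without DMSO replicate 2, 1 rose and 2 fell (3.85%, beside 9.98% of all genes). Without DMSO replicate 3, 17 rose and 7 fell (30.8%, beside 22.9% of all genes). Without DMSO replicates 1 and 2, none rose and 2 fell, RPL41 and RPS9, where 5.48% of all genes were called.

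A-485 alone gave 1 call among the 78 genes, RPL41, and 2.14% of all genes tested were called (0.348% higher and 1.79% lower). RPL41 had 36183, 37523 and 47657 with A-485 and fell with a log2 fold change of -0.75 ± 0.19 (adjusted p = 0.032 by limma), all 3 libraries below every DMSO library. This call was lost in 12 of 19 alternative settings, among them those without DMSO replicate 2 (-0.64) and without A-485 replicate 1 (-0.67) or 2 (-0.70). At the other end RPL34 had 0.54 (limma adjusted p = 0.12) and RPS29 had 0.50 (limma adjusted p = 0.26) on the log2 scale, neither called. RPL28, at -0.47 (limma adjusted p = 0.055), RPL39 and RPS23, at -0.53 each, were not called either. The median over the family was 0.00 and over all genes -0.03. An unadjusted limma p below 0.05 was found for 15 of the 78, beside 2525 of all 16104 genes tested. By edgeR 2 genes rose and none fell (2.56%, beside 2.26% of all genes), and by DESeq2 2 rose and 5 fell (8.97%, beside 5.29%). Without DMSO replicate 3, 6 rose and 4 fell (12.8% of the family, beside 7.07% of all genes). Without DMSO replicates 1 and 2 the median over the family was -0.15 and over all genes -0.19.

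**Figure D3:**
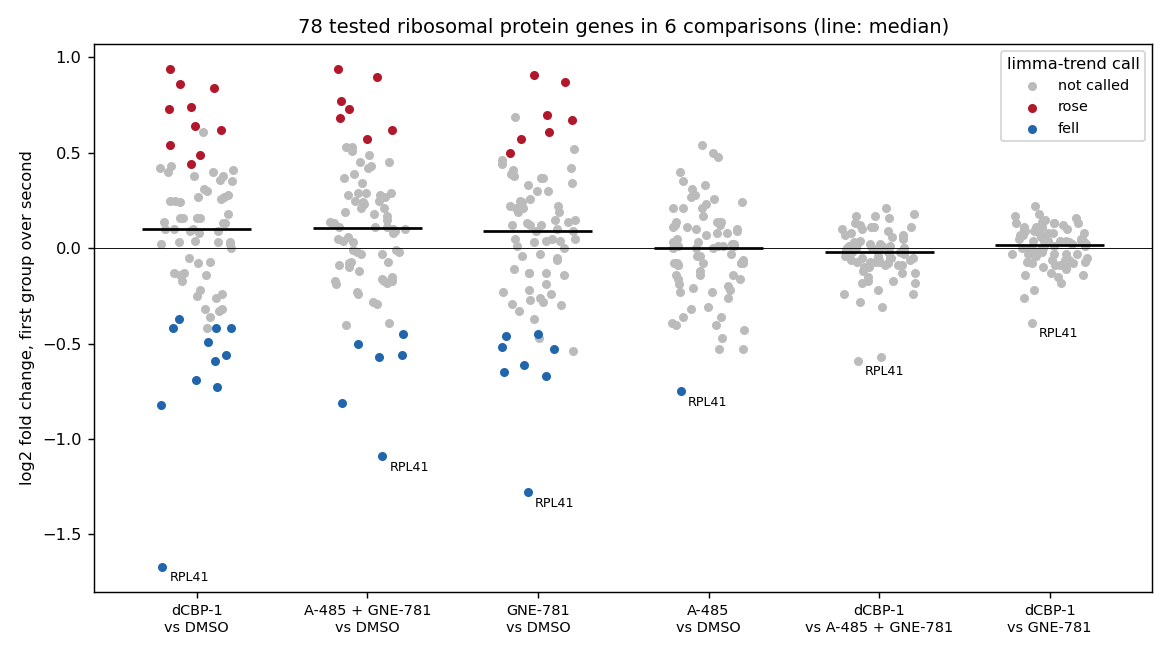
Log2 fold change (y axis) of the 78 tested ribosomal protein genes (points) in 6 comparisons (x axis), coloured by the limma-trend call, with the median as a line. In the 4 comparisons with DMSO the medians lie between 0.00 and 0.11, RPL41 is the lowest point in each, and no gene is called in the 2 comparisons of dCBP-1 with the inhibitors.

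The comparisons of dCBP-1 with the inhibitors involve no DMSO library in the fold change. No ribosomal protein gene was called by limma-trend between dCBP-1 and the combination, where 6.17% of all genes passed the threshold (0.553% above and 5.61% below). An unadjusted limma p below 0.05 was found for 3 of the 78, beside 2589 of all 16104 genes tested. Between dCBP-1 and GNE-781 none was called either, with 9.31% of all genes called (2.19% higher and 7.13% lower). There 1 of the 78 had an unadjusted limma p below 0.05, beside 3409 of all 16104. By edgeR and by DESeq2 the counts were also 0 in both comparisons. The 2 tools called 8.63% and 10.9% of all genes against the combination, and 13.4% and 16.1% against GNE-781. The medians over the family were -0.02 against the combination and 0.02 against GNE-781. The 95% intervals had a median half-width of 0.34 on the log2 scale in both. They lay within 0.5 of 0 for 57 of 78 genes against the combination and 59 of 78 against GNE-781, and within 1 of 0 for 77 and 78 genes.

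RPL41 was lowest in both. Against the combination its log2 fold change was -0.59 ± 0.19, with a 95% interval from -0.98 to -0.20 and a limma adjusted p of 0.065, and all 3 dCBP-1 libraries were below all 3 of the combination. Against GNE-781 it was -0.39 ± 0.19 (limma adjusted p = 0.23), and the libraries overlapped. RPL39 followed against the combination, at -0.57 (limma adjusted p = 0.18), where combination replicate 3 had 9451 against 4356 and 4277 in the other 2. RPS25 had -0.31 against the combination and -0.26 against GNE-781 (limma adjusted p = 0.30 and 0.33). The highest value in both was that of RPL13A, 0.21 and 0.22 (limma adjusted p = 0.76 and 0.67).

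Grouped by role, none of the 4 proteins of the stalk was called in any comparison, where 2.14% to 37.8% of all genes were called. The 4 are too few to set a share against that. Without DMSO replicates 1 and 2 their median with dCBP-1 was -0.25, beside -0.12 over all genes. With all libraries, 2 of the 4 had every dCBP-1 library below every DMSO library, beside 3617 of all 16104 genes. None of the stalk's 4 proteins lay above in this way, beside 3510 of all genes. RPLP0, its base, averaged 34897 ± 708 with dCBP-1 and 34389 ± 5411 with DMSO (SD, n = 3 each; log2 fold change 0.03, 95% interval -0.28 to 0.35). RPLP1 averaged 111012 ± 3479 with dCBP-1 and 131470 ± 6313 with DMSO, a log2 fold change of -0.24 that was not called (limma adjusted p = 0.33), and RPLP2 had -0.25 (limma adjusted p = 0.21). RPL5 and RPL11, which with the 5S rRNA bind MDM2 and so signal impaired ribosome assembly to p53, had log2 fold changes of 0.08 and 0.25 with dCBP-1 (limma adjusted p = 0.70 and 0.20), and 0.01 each without DMSO replicates 1 and 2. RPL11 stood at 23483, 23011 and 25808 with dCBP-1, against 18864, 18494 and 23944 with DMSO, where DMSO replicate 3 lay within the dCBP-1 range. RPSA, also known as the laminin receptor, had 0.28 (limma adjusted p = 0.30).

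Of 7 tested proteins around the exit of the peptide tunnel, RPL26 rose and RPL19 and RPL39 fell after dCBP-1. Of 7 at the mRNA entry and exit of the small subunit, none rose and 2 fell, among them RPS3, an entry protein that also acts in DNA repair. Of 10 genes whose mutations cause Diamond-Blackfan anemia, 1 rose, RPL26, and 1 fell. These counts stand beside 37.8% of all genes called, and the groups hold too few genes to set a share against it. With DMSO replicates 1 and 2 left out, these counts were none up and 1 down at the tunnel exit, none up and 2 down at the mRNA channel, and none called among the anemia genes, where 23.5% of all genes were called. RPL39L, at 541 ± 56.5 with dCBP-1 and 676 ± 90.3 with DMSO (SD, n = 3 each), and RPS27L were not called. Of 7 further ribosomal proteins that the naming rule leaves out, FAU and RACK1 among them, only RPL36AL rose (0.45 ± 0.15, limma adjusted p = 0.021) and none fell, and without DMSO replicates 1 and 2 it was not called (0.34).

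**Figure D4:**
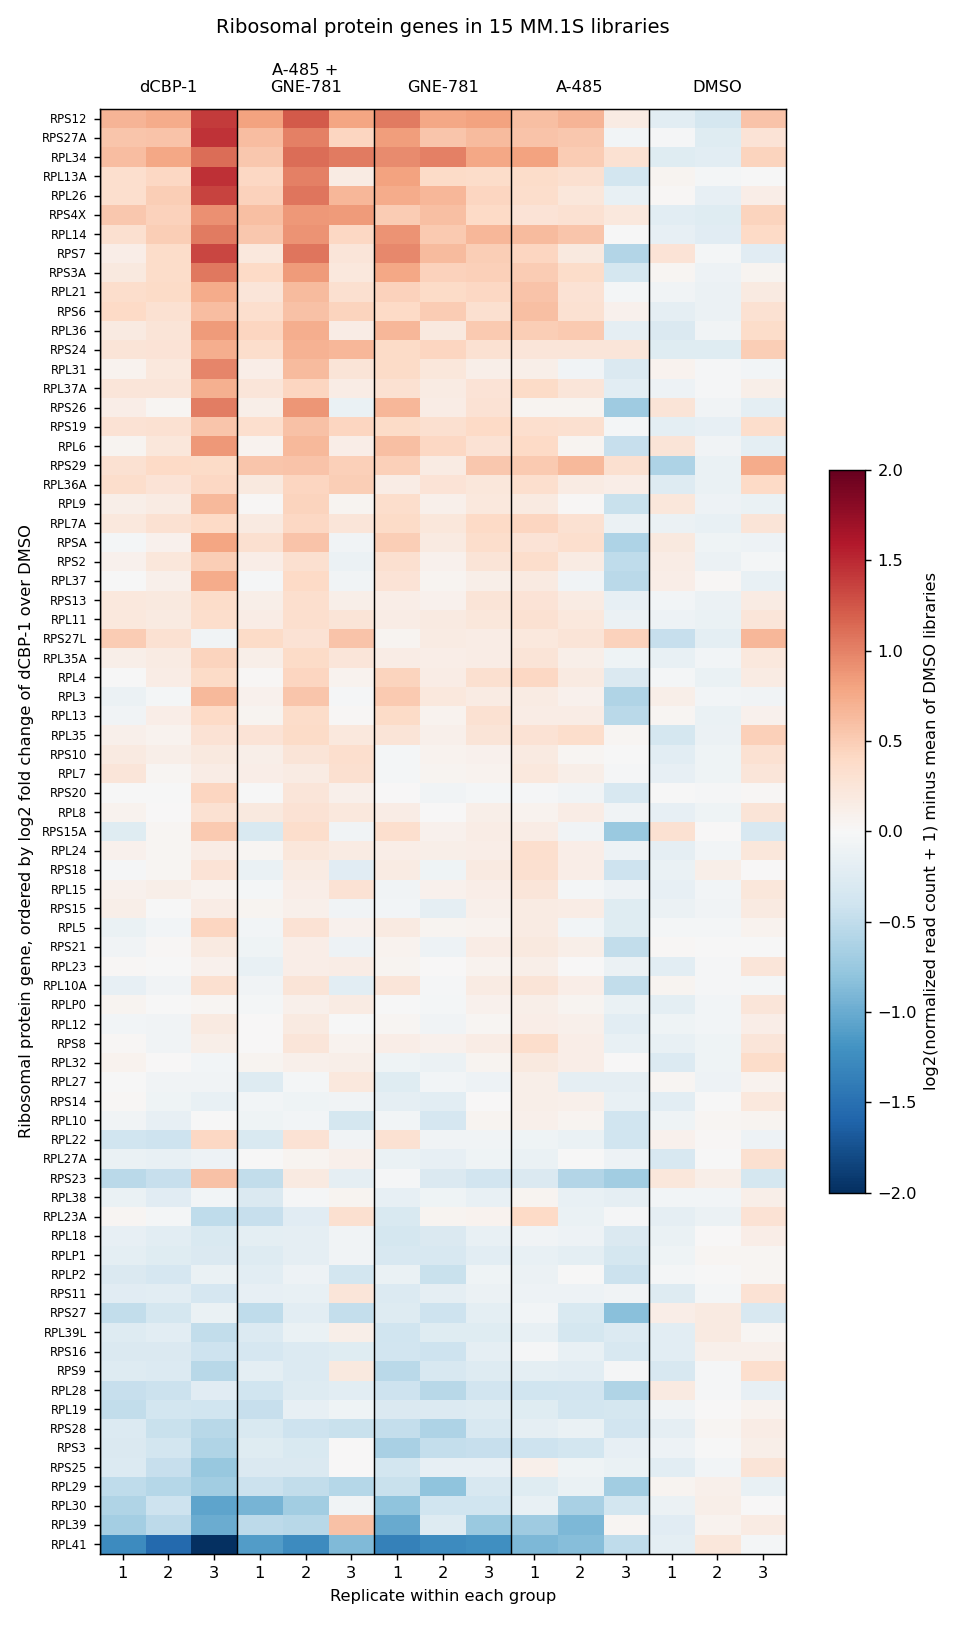
Log2(normalized read count + 1) minus the mean of the DMSO libraries (colour, scale ending at -2.0 and 2.0) of 75 ribosomal protein genes (rows, ordered by dCBP-1 over DMSO) in 15 libraries (columns). RPS12 is at the top and RPL41 at the bottom; the upper rows are darkest in dCBP-1 replicate 3 and A-485 + GNE-781 replicate 2 and palest in A-485 replicate 3 among treated libraries.

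Genes that act on ribosomal proteins or their mRNAs were counted in the same fit. MYC was at 7.45, 5.65 and 1.19 with dCBP-1, from 8, 7 and 1 reads, against 1221, 1709 and 1413 with DMSO. The median log2 fold change with dCBP-1 was 0.10 over the ribosomal protein genes and 0.07 over all genes. Without DMSO replicates 1 and 2 these medians were -0.08 and -0.12. They describe relative mRNA levels at 6 h, and transcription rates were not measured. With the combination MYC had 162.0, 230.0 and 412.0, with GNE-781 334.0, 433.0 and 533.0, and with A-485 1095, 588.0 and 816.0. Of 11 factors that bind ribosomal protein promoters, MYC, GABPB1 and SP1 fell with dCBP-1 and none rose, which is 27.3%, beside 37.8% of all genes called (18.5% lower). GABPB1, a subunit of the ETS factor GABP, had a log2 fold change of -0.66 ± 0.15 (adjusted p = 0.0011 by limma). All 3 were called lower also without DMSO replicates 1 and 2, where 23.5% of all genes were called.

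Of 9 genes listed as chaperones and carriers of ribosomal proteins, 5 fell and 1 rose with dCBP-1 (66.7%), beside 37.8% of all genes called and 18.5% called lower. The list shares a gene with the TOP genes below and is too short to set its share against that of all genes. HEATR3, which brings RPL5 into the nucleus, averaged 328 ± 2.45 with dCBP-1 and 740 ± 79.2 with DMSO (SD, n = 3 each; log2 fold change -1.17 ± 0.14, limma adjusted p = 1.7e-07). PDCD2L, a relative of the RPS2 chaperone PDCD2, had -0.91 ± 0.18 (limma adjusted p = 0.00017). BCCIP, which binds RPL23, had -0.75 ± 0.16 (limma adjusted p = 0.00035). GRWD1 and LTV1 fell, with log2 fold changes of -0.60 and -0.58, and TSR2, the RPS26 chaperone, rose by 0.52. When DMSO replicates 1 and 2 were left out, 4 of the 9 fell and none rose (44.4%), beside 23.5% of all genes called. PDCD2L and BCCIP had log2 fold changes of -0.96 and -1.18 there, and HEATR3 also kept its call.

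Of 12 genes through which mTOR and LARP1 act on TOP mRNAs, 4 fell and 1 rose with dCBP-1, both with all libraries and without DMSO replicates 1 and 2. That is 41.7% each time, beside 37.8% of all genes with all libraries and 23.5% without those 2. DEPTOR, an inhibitor within mTOR complexes that is known for high expression in part of myelomas, averaged 119 ± 28.1 with dCBP-1 and 1957 ± 195 with DMSO (SD, n = 3 each; log2 fold change -4.05 ± 0.17, limma adjusted p = 4.2e-18). EIF4EBP1, an mTOR substrate that blocks cap-dependent translation, had -0.96 ± 0.15 (limma adjusted p = 9.2e-06). TSC1, a part of the complex that restrains mTOR, had 1.10 ± 0.14 (limma adjusted p = 5e-07). LARP1 had -0.53 ± 0.13 (limma adjusted p = 0.0015).

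Of 16 other genes whose mRNAs carry the TOP motif, mostly translation factors, 3 fell and 1 rose with dCBP-1 (25%), beside 37.8% of all genes called. PABPC1, the cytoplasmic poly(A) binding protein, averaged 15631 ± 3526 with dCBP-1 and 32314 ± 3603 with DMSO (SD, n = 3 each; log2 fold change -1.07 ± 0.20, limma adjusted p = 0.0001). EIF4B, a cofactor of the helicase eIF4A, had -0.82 ± 0.13 (limma adjusted p = 1.6e-05), and HNRNPA1, a splicing factor, had -0.77 ± 0.14 (limma adjusted p = 4.9e-05). EEF1D, a subunit of the elongation factor exchange complex, had 0.66 ± 0.18 (limma adjusted p = 0.005) and was not called without DMSO replicates 1 and 2 (0.28), while the 3 genes that fell kept their calls there (18.8% of the 16, beside 23.5% of all genes). The median of the 16 was 0.05, beside 0.10 for the ribosomal protein genes and 0.07 for all genes.

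The 75 mitochondrial ribosomal protein genes, nuclear genes for the separate ribosome of the mitochondrion, were also split. With dCBP-1 16 rose and 15 fell (41.3%, beside 37.8% of all genes called), and the median log2 fold change was -0.03. MRPL28 had -1.20 ± 0.19 on the log2 scale (limma adjusted p = 7.3e-06), MRPL4 had -0.96 ± 0.14 (limma adjusted p = 2.1e-06) and MRPL21 had 0.84 ± 0.14 (limma adjusted p = 1.3e-05). When DMSO replicates 1 and 2 were left out, 3 rose and 11 fell (18.7%, beside 23.5% of all genes called), and the log2 fold changes of MRPL28, MRPL4 and MRPL21 were -0.64, -0.61 and 0.67. With A-485 alone 4 of the 75 fell and none rose, where 2.14% of all genes were called. With those 2 libraries left out, the median log2 fold change with A-485 was -0.15 over the 75, beside -0.19 over all genes.

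Some single libraries deviated from their replicates along the order of genes in a treatment difference, and others did not. For each library, the log2 value of each gene was set against the mean of the other 2 libraries of its group, and this deviation was compared across the 78 genes with the difference of GNE-781 minus DMSO, which shares no library with the groups named here. The deviation of dCBP-1 replicate 3 had a Pearson r of 0.72 with that difference, and its median over the genes was 0.19. Combination replicate 2 had an r of 0.69 and combination replicate 1 had -0.19. Against A-485 minus DMSO, the r of dCBP-1 replicate 3 was 0.30 and that of combination replicate 2 was 0.27. A-485 replicate 3 had an r of -0.57 and a median of -0.31, and combination replicate 3 had an r of -0.52. Replicates 1 and 2 had -0.70 and -0.65 in dCBP-1 and 0.50 and 0.45 in A-485. The deviations within a group are not independent of each other. Genes outside the family were not examined in this way. The genes share their libraries and their scaling, so these are descriptions over 78 genes without a test. These libraries were named after their values were seen. RPL13A had 46030 in dCBP-1 replicate 3, against 21027 and 22379 in the other 2, and 12924 in A-485 replicate 3, against 21646 and 20890. RPL41 had 14698 in dCBP-1 replicate 3, the lowest of all libraries. The part of RNA quality or handling in these deviations was not tested.

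**Figure D5:**
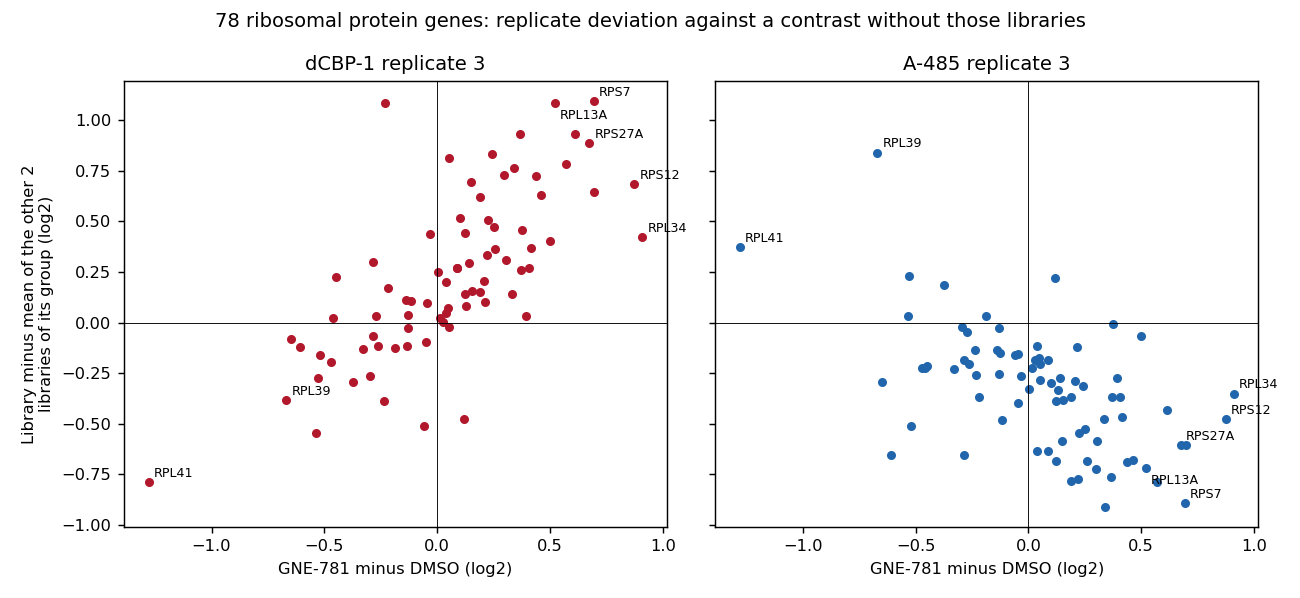
Deviation of dCBP-1 replicate 3 (left) and A-485 replicate 3 (right) from the mean of the other 2 libraries of its group (y axis, log2) against GNE-781 minus DMSO (x axis, log2) for the 78 tested ribosomal protein genes (points). The points run upward on the left (r = 0.72) and downward on the right (r = -0.57).

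Processed pseudogenes are numerous in this family, and 1544 pseudogene rows carried a ribosomal protein name. Together they held 0.0742% to 0.0965% of the reads of a library. The highest were RPL36AP37 with a mean level of 881.3, RPS15P4 with 709.2 and RPL23AP42 with 620.0. RPL29P4 and RPL41P2, copies of genes that fell, had 542.6 and 455.6. Across the 78 genes, the number of pseudogenes listed for a gene had a Spearman correlation of 0.39 with dCBP-1 minus DMSO, 0.39 with the deviation of dCBP-1 replicate 3 and -0.31 with that of A-485 replicate 3. Coding length had 0.18, 0.19 and -0.30 with the same measures. These are descriptions across genes that share libraries, without a test.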

How the data were processed

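Gene-level signal was deposited by the authors as normalized read counts of QuantSeq 3′ libraries, per the labels' protocols; the genome build was hg19, per the submitters' processing notes, and the aligner, counting tool, strandedness and normalization tool are not given in the sources used here. Each deposited value was a whole multiple of 1 step per library (100.0% within 0.01 of a whole read), so reads could be recovered. Samples were grouped by title. The treatment field of 2 combination libraries names other compound numbers, and the molecule field names genomic DNA; these 2 entries were treated as mistakes in the labels. Spike-in RNA is named in the labels, but 0 such rows were in the table, so nothing here measures RNA per cell. Symbols were found for 96.5% of identifiers.

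Testing covered the 16104 genes that reached a value of 5 in 3 or more of the 15 libraries, on log2(value + 1) with limma-trend (limma 3.58.1, R 4.3.3), in 1 model of 5 group means, two-sided, with Benjamini-Hochberg adjustment over all genes tested; a gene with an adjusted p under 0.05 counted as called. Fold changes on this scale understate changes of low genes. On the recovered whole-read counts, edgeR 4.0.16 and DESeq2 1.42.0 were alternatives. Only the limma-trend fit of dCBP-1 against DMSO was tried on simulated data, with a common dispersion for all genes and no shared library shifts. In dCBP-1 against DMSO, edgeR called 6612 genes and DESeq2 6831, beside 6092 by limma-trend. Replicate numbers did not pair the samples (correlations of same-numbered deviations from -0.16 to 0.08), and no replicate pair agreed within sampling noise (chi-square per degree of freedom of 5.61 or more). Depth was 13103114 to 18291529 recovered reads; intervals on shares cover counting error only. The genes described with full statistics were the 4 highest and 4 lowest fold changes and the 2 smallest p of each comparison and a fixed list, with other members named by their levels. The members and the gene lists were chosen with earlier results of these data known. Results of some genes are counted in the totals but not reported here by name.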

Additional observations from a re-analysis of the deposited data

How the results depend on the processing

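The fold changes with full statistics were unaltered in call and direction in 1704 of the recomputed values, moved in 120, lost the call in 96 and gained it in 58. The unaltered values include genes called in neither fit, so this tally does not measure how stable the calls were. Calls were lost in 13 of 19 settings for RPL39 with GNE-781, 9 of 20 for RPS6 with dCBP-1 and 0 of 20 for RPL41 with dCBP-1. Leaving out each library in turn gave 4 to 19 genes higher and 8 to 13 lower for dCBP-1 against DMSO, 3 to 17 and 2 to 8 for the combination, 1 to 17 and 2 to 8 for GNE-781, and 0 to 6 and 0 to 4 for A-485. In the same fits 30.9% to 40.1% of all genes were called for dCBP-1 and 12.7% to 26.6% for the combination. For GNE-781 it was 9.11% to 22.9% of all genes, and for A-485 0.428% to 7.07%. The medians over the family ran from 0.03 to 0.17 for dCBP-1, 0.04 to 0.17 for the combination, 0.03 to 0.14 for GNE-781 and -0.12 to 0.11 for A-485. Against the combination, dCBP-1 gave 0 higher and 0 to 1 lower, where 4.29% to 6.13% of all genes were called. Without DMSO replicates 1 and 2 the family medians were -0.08 for dCBP-1, -0.05 for the combination, -0.12 for GNE-781 and -0.15 for A-485. In the same order, the medians over all genes were -0.12, -0.09, -0.11 and -0.19. Leaving out dCBP-1 replicate 3 as well, chosen after seeing the data, gave a family median of -0.14 for dCBP-1, beside -0.12 over all genes. The cause was not tested.

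For dCBP-1, 14 genes were higher and 15 lower with TMM scaling, 16 and 15 with median-ratio scaling, and 36 and 6 with scaling to the total (median 0.28). They were 18 and 12 with scaling to the family's median, 7 and 6 without the filter, 21 and 16 by edgeR and 18 and 17 by DESeq2. In the same order, 37.2%, 39.7%, 53.8%, 38.5%, 16.2%, 47.4% and 44.9% of the family were called. Of all genes it was 41.7%, 41.8%, 45.9%, 39.7%, 17.9%, 41.1% and 42.4%. For the combination the counts were 11 and 11 with TMM, with median-ratio scaling and by edgeR, and 25 and 5 with total scaling. They were 11 and 10 with the family's median, 3 and 4 without the filter, and 11 and 13 by DESeq2. In the same order, 28.2%, 28.2%, 28.2%, 38.5%, 26.9%, 8.75% and 30.8% of the family were called. Of all genes it was 26%, 26%, 25.4%, 29.3%, 22.4%, 8.65% and 27.3%. For GNE-781 the counts were 9 and 13 with TMM, 21 and 7 with total scaling, 2 and 4 without the filter, 11 and 13 by edgeR and 8 and 15 by DESeq2. In the same order, 28.2%, 35.9%, 7.5%, 30.8% and 29.5% of the family were called, beside 22.1%, 26%, 6.58%, 21.8% and 23.4% of all genes. For A-485 the counts were 1 and 0 with TMM, median-ratio and family-median scaling, and 3 and 0 with total scaling (median 0.16). They were 0 lower without the filter and with only the groups compared, 2 lower with a filter at 20, 2 and 0 by edgeR and 2 and 5 by DESeq2. In the same order, 2.38%, 2.38%, 1.09%, 4.2%, 0.599%, 0.484%, 2.85%, 2.26% and 5.29% of all genes were called. With the filter at 20, 1 gene was lower with dCBP-1 than with the combination, where 8.44% of all genes were called. Total scaling moved the median of all genes for dCBP-1 to 0.24, beside 0.07 with the deposited scaling.

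With the replicate number as a block, 9 genes were higher and 9 lower for dCBP-1, 7 and 5 for the combination, 3 and 7 for GNE-781 and 0 and 0 for A-485. In the same order, 36%, 18.9%, 14.4% and 1.46% of all genes were called. The replicate numbers did not pair the samples, and not every sample correlated best with its own number. Without mitochondrial genes in the denominator the mean shares were 15.8% with dCBP-1, 15.2% with the combination, 14.8% with GNE-781, 14.9% with A-485 and 14.3% with DMSO. With 3 libraries a group, differences under about 0.34 on the log2 scale lay within the typical 95% interval.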
